A study of Mus musculus with 6 samples.

Results

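The genes described here are 10 integrin subunits that bind the extracellular matrix or activate latent TGF-beta: the alpha subunits Itga1, Itga2, Itga5, Itga8, Itga11 and Itgav and the beta subunits Itgb1, Itgb3, Itgb6 and Itgb8. They were taken by gene name, and all 10 were found among the 28601 genes of the deposited table. RNA was sequenced from the livers of 3 male mice with the PRDX1 Cys52Ser substitution and 3 wild-type (WT) male mice, all fed CDAHFD, a choline-deficient, amino acid-defined high-fat diet that produces steatohepatitis and fibrosis. PRDX1 is a peroxidase that uses the cysteine at this position to reduce hydrogen peroxide. Every mouse began the diet at 8 weeks of age, and the titles give 8 weeks of feeding for both genotypes. The treatment field differs from the titles: it gives 11, 12 and 13 weeks for Cys52Ser replicates 1, 2 and 3, and 8, 9 and 10 weeks for WT replicates 1, 2 and 3, so that, read literally, genotype and feeding time cannot be told apart. The whole liver was used, no group on a normal diet is part of the comparison, and the labels do not give the background strain or whether the animals were littermates.

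Integrins are receptors of 1 alpha and 1 beta subunit that join the matrix outside the cell to the actin cytoskeleton inside it. The beta 1 subunit pairs with all 6 alpha subunits listed here, while alpha v also pairs with beta 3, beta 5, beta 6 and beta 8. In fibrotic liver, alpha v integrins are known for releasing active TGF-beta from its latent complex, a step that drives stellate cells, the main collagen producers of the liver, toward the myofibroblast state.

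Of the 10 subunits, Itga8 and Itgb8 fell in Cys52Ser livers and none rose (edgeR quasi-likelihood test, Benjamini-Hochberg adjusted p below 0.05). Itga8, the alpha partner of beta 1 in the receptor for nephronectin, was 4.68-fold lower, and Itgb8, the alpha v partner that binds latent TGF-beta, was 4.29-fold lower. Itgb3, the beta subunit of the vitronectin receptor, was 1.98-fold higher in Cys52Ser livers without overlap between the groups, but its adjusted p was 0.072. It was the 1 subunit with a higher level at an unadjusted edgeR p below 0.05, and 4 had a lower level (Itga2, Itga8, Itgav and Itgb8). At that threshold 11.3% of all genes tested were higher and 11.1% lower. Itgb1, the common partner, differed by a log2 fold change of -0.03 (95% interval -0.29 to 0.23). Over all 18648 genes tested, 4.98% were called, 2.46% lower and 2.52% higher, and the median log2 fold change was -0.003, against -0.642 for the 10 subunits. The median of the 10 moved with the scaling and with the library left out, as given at the end. The subunits were chosen with earlier results of these data known, so the contrast is a description only. Among the 10, 2 log2 fold changes were above 0 (Itga5 and Itgb3) and 8 were below it, and the sign of Itga5 turned when libraries were divided by their totals alone.

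The promoters of Itga8 and Itgb8 are shown because these are the subunits that passed the test. Itga8 (ENSMUSG00000026768) lies on the minus strand of chromosome 2 at 12106632 to 12301922, and Itgb8 (ENSMUSG00000025321) on the minus strand of chromosome 12 at 119158022 to 119238802 (GRCm38). The sequences are RefSeq's on GRCm38.p6, read 5′ to 3′ on the gene's strand, with 250 bases before and 50 bases after a start site. Capitals mark the letters CAGAC, a SMAD-binding motif, on either strand.
Itga8, chr2:12301895-12302194, minus strand: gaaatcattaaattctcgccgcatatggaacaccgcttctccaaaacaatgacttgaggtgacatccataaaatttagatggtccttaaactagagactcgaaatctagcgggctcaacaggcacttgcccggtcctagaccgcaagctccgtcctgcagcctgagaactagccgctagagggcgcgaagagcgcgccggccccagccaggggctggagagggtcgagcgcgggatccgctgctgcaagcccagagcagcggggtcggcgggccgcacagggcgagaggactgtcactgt
Itgb8, chr12:119238227-119238526, minus strand: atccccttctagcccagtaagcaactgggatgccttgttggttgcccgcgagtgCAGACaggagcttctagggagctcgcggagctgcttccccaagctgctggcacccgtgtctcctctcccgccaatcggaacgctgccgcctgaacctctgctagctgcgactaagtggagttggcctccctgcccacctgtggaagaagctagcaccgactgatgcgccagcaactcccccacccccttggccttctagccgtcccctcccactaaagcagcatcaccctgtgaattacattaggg
The Itga8 window held 23 CpG pairs and 59.0% G or C, against medians of 7 CpG pairs and 52.7% over all 32851 promoters in the RefSeq table. The Itgb8 window held 13 CpG pairs and 60.7% G or C. RefSeq's start of Itgb8 lies inside the span that the deposited table gives, so this window need not be the start used in these livers. A search of both strands for TGANTCA (AP-1), CAGAC (SMAD) and GGAATG (TEAD) found no match for Itga8 and the 1 CAGAC for Itgb8. RefSeq promoters were matched for 9 of the 10 subunits, with Itgb3 unmatched, and 6 of these 9 held CAGAC, 1 held GGAATG (Itgb1) and none held the AP-1 letters. The 9 subunits had 10 windows, because Itgb6 has a further start site, whose window from 60673644 on chromosome 2 held no CAGAC. A subunit was counted if any of its windows matched, whereas the shares over all promoters are per window. Of all promoters, CAGAC occurred in 49.6%, GGAATG in 14.7% and the AP-1 letters in 7.8%, and no matches overlapped in the windows of these subunits.

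Total counts per library were 53318196 to 73900923. Levels between genotypes are given as CPM, counts relative to a library size scaled by TMM, which corrects for differences in composition between libraries. Levels between genes are given as FPKM, which is per transcript length. Albumin took 8.08% to 8.49% of counts in Cys52Ser libraries and 3.6% to 5.55% in WT libraries, as a liver sample would give, and the 10 hepatocyte markers summed to 118300 to 146200 CPM in Cys52Ser livers, against 45140 to 78000 CPM in WT livers. Without TMM, when libraries were divided by their totals alone, all genes together had a median log2 fold change of -0.35, so directions near 0 depend on the scaling. Prdx1 itself had 859, 661 and 819 CPM in Cys52Ser livers, against 864, 920 and 978 CPM in WT livers (log2 fold change -0.24, edgeR adjusted p = 0.421), which cannot check the genotype because the substitution is not visible in counts per gene. Cys52Ser replicate 2 stood apart in transcripts of Acta2, a smooth muscle actin, and Krt19, a biliary keratin. It had 90.4 CPM of Acta2, against 16.5 and 9.86 CPM in Cys52Ser replicates 1 and 3, and 61.7 CPM of Krt19, against 7.77 and 5.61 CPM in Cys52Ser replicates 1 and 3 and 12.1 to 25.4 CPM in WT livers. Its Krt7 and Krt23, the other biliary keratins measured, lay at 6.85 and 9.72 CPM, within the WT ranges of 6.39 to 14.2 and 5.60 to 12.7 CPM. In whole liver, fewer cells of a type and less RNA per cell cannot be told apart.

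Itga8 was measured at 12.5, 9.68 and 9.46 CPM in Cys52Ser livers, against 73.9, 42.4 and 31.6 CPM in WT livers. The groups did not overlap, the Cys52Ser livers lay close together, and WT replicate 1 was far above the other WT livers. The log2 fold change was -2.23 ± 0.32 (SE; 95% interval -2.98 to -1.47; edgeR adjusted p = 0.0229), and the means were 10.5 ± 1.69 CPM in Cys52Ser livers and 49.3 ± 22.0 CPM in WT livers (SD, n = 3 each). Counts behind these values were 494 to 816 in Cys52Ser livers and 1824 to 5844 in WT livers. With any single library left out, the log2 fold change stayed between -2.52 and -1.86, but the call was lost without Cys52Ser replicate 1 (edgeR adjusted p = 0.0766), 2 (0.0517) or 3 (0.0934), and without WT replicate 2 (0.0639). It remained without WT replicate 1, the high library (edgeR adjusted p = 0.0324), and without WT replicate 3 (0.0237). An antisense gene, E030013I19Rik, shares 372 exon bases with Itga8 on the opposite strand. It was at 0.291, 0.203 and 0.306 CPM in Cys52Ser livers, against 3.57, 1.56 and 1.23 CPM in WT livers (log2 fold change -2.98, edgeR adjusted p = 0.033). Its level was a small part of that of Itga8 in every library, but the sources do not say if reads were counted by strand, so reads in the shared bases cannot be assigned with certainty.

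Itgb8 was measured at 1.38, 1.84 and 1.34 CPM in Cys52Ser livers, against 8.87, 6.49 and 4.21 CPM in WT livers. As for Itga8, every Cys52Ser liver was below every WT liver, and WT replicate 1 was the highest. The log2 fold change was -2.10 ± 0.33 (SE; 95% interval -2.88 to -1.33; edgeR adjusted p = 0.0243), with means of 1.52 ± 0.279 CPM in Cys52Ser livers and 6.52 ± 2.33 CPM in WT livers (SD, n = 3 each). These levels rest on 70 to 100 counts in Cys52Ser livers and 243 to 701 in WT livers. The call was lost without Cys52Ser replicate 1 (edgeR adjusted p = 0.0897) or 3 (0.0934) and without WT replicate 1 (0.0575) or 2 (0.0762). It remained without Cys52Ser replicate 2 (edgeR adjusted p = 0.0427) and without WT replicate 3 (0.0277). In FPKM, Itgb8 was under 1 in every library, and the log2 fold change there depended on the pseudocount. It was -1.69 on log2(FPKM + 0.1) and -0.52 on log2(FPKM + 1), and limma called it on both scales (adjusted p = 0.0278 and 0.0403), on which 13.9% and 12.8% of all genes were called lower. With a pseudocount of 0.5 it was -0.83 (limma adjusted p = 0.0351, with 13.4% of genes called lower). The limma call was lost after quantile normalization (-0.64, adjusted p = 0.0677, 2.62% of genes called lower) and without a filter on low values (-0.83, adjusted p = 0.0634, 3.81% of genes called lower).

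Itgb6, the other alpha v partner that activates latent TGF-beta and a subunit of epithelial cells, was measured at 0.459, 1.53 and 0.172 CPM in Cys52Ser livers, against 2.58, 0.839 and 0.797 CPM in WT livers. The groups overlapped, and 1 library of each genotype carried most of the signal. With 9 to 83 counts in Cys52Ser livers and 46 to 204 in WT livers, the log2 fold change of -0.97 had a 95% interval of -2.96 to 1.02 (edgeR adjusted p = 0.567). Leaving out a library moved it between -2.14 and -0.21, and the interval holds both a fall as large as that of Itgb8 and no difference.

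Itgb3 pairs with alpha v to bind vitronectin and with Itga2b to form the fibrinogen receptor of platelets. It lies on the plus strand of chromosome 11 at 104608000 to 104670476 (GRCm38, ENSMUSG00000020689). It was measured at 6.78, 7.16 and 6.51 CPM in Cys52Ser livers, against 2.45, 3.35 and 4.51 CPM in WT livers. All Cys52Ser livers were above all WT livers and lay within a narrow band, while the order of the WT livers was the reverse of that seen for Itga8 and Itgb8. The log2 fold change was 0.99 ± 0.25 (SE; 95% interval 0.39 to 1.58), and edgeR's adjusted p of 0.072 missed the threshold. DESeq2 called it (adjusted p = 0.007, where 7.42% of 17435 genes were called higher), and none of the other 18 alternatives did. Groups with no overlap in CPM were common in the table: 14.4% of genes tested were higher and 15.2% were lower in every Cys52Ser liver. Among the 10 subunits, Itgb3 was higher in this sense and Itga2, Itga8 and Itgb8 were lower.

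Itgav, the alpha subunit shared by the beta 3, beta 6 and beta 8 receptors, was measured at 28.1, 33.0 and 28.8 CPM in Cys52Ser livers, against 48.3, 40.2 and 33.0 CPM in WT livers. The groups met at their edges, Cys52Ser replicate 2 and WT replicate 3 having nearly the same level. The log2 fold change was -0.43 ± 0.15 (SE; 95% interval -0.79 to -0.07; edgeR adjusted p = 0.149), and it was called under division by library totals alone (-0.79, edgeR adjusted p = 0.0471), where 14.6% of all genes were called lower.

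Itgb1 had the highest level of the 10 subunits and little spread. It was measured at 234, 257 and 241 CPM in Cys52Ser livers, against 253, 253 and 243 CPM in WT livers (log2 fold change -0.03, edgeR adjusted p = 0.908). The ranges overlapped, and the coefficient of variation was 4.89% in Cys52Ser livers and 2.35% in WT livers. The 95% interval of its log2 fold change, -0.29 to 0.23, lies wholly above the intervals of Itga8 and Itgb8.

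Itga5, which pairs with beta 1 in the main fibronectin receptor, was measured at 49.1, 55.4 and 42.3 CPM in Cys52Ser livers, against 54.0, 41.9 and 36.1 CPM in WT livers. The ranges overlapped, with a log2 fold change of 0.15 (95% interval -0.25 to 0.55; edgeR adjusted p = 0.666) whose sign turned under division by library totals alone (-0.20) and in limma on log2(FPKM + 0.5) (-0.18). The collagen receptor subunits among the 10 differed in level but none was called. Itga1, a receptor for collagen IV and other collagens, was measured at 35.0, 41.4 and 43.6 CPM in Cys52Ser livers, against 46.0, 43.8 and 39.3 CPM in WT livers (log2 fold change -0.11, edgeR adjusted p = 0.661). These ranges overlapped, and Itga1 shares 685 exon bases on the same strand with the gene model Gm49395, which was at 1.20 to 1.87 CPM in Cys52Ser livers and 1.44 to 3.10 CPM in WT livers.

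Itga2, the alpha subunit of a receptor for fibrillar collagen and, in mice, of platelets and epithelia, was measured at 2.43, 1.91 and 0.708 CPM in Cys52Ser livers, against 4.60, 3.22 and 3.34 CPM in WT livers. The groups did not overlap, yet the spread within the Cys52Ser livers was wide (coefficient of variation 52.5%) and the log2 fold change of -1.14 had a 95% interval of -2.21 to -0.07 (edgeR adjusted p = 0.196). None of the 19 alternatives called it. Itga11, the fibroblast receptor for collagen I, was measured at 0.704, 0.865 and 0.670 CPM in Cys52Ser livers, against 2.35, 0.954 and 0.728 CPM in WT livers. WT replicate 1 stood far above the other 5 livers, and the log2 fold change of -0.85 (edgeR adjusted p = 0.401) was -0.22 without it. Itga1 and Itga2 are neighbours on the minus strand of chromosome 13, at 114953096 to 115101964 and at 114833081 to 114932100.

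**Figure D1:**
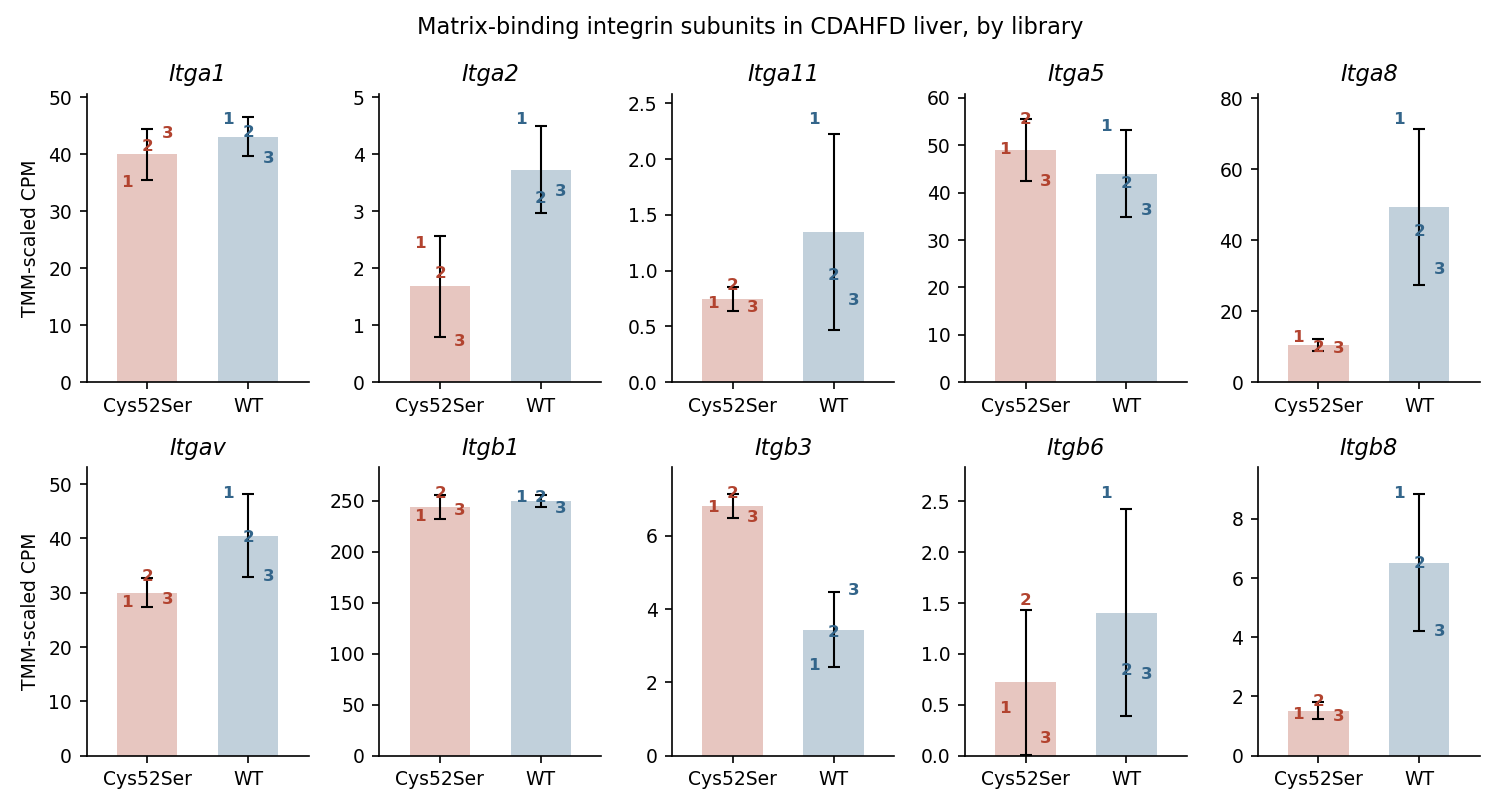
Level of each subunit in TMM-scaled CPM, with Cys52Ser to the left of WT in each panel. Bars are means, error bars are SD over 3 livers and the digits are the replicates. Itga8 and Itgb8 are lower and Itgb3 is higher in all 3 Cys52Ser livers than in any WT liver, while Itgb1 and Itga5 overlap.

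The plot of levels by library shows that the subunits did not move as 1 block. Cys52Ser replicate 2 was the highest Cys52Ser liver for 7 of the 10 subunits, and WT replicate 1 was the highest WT liver for 9 of the 10, Itgb3 being the exception. For Itgb1, WT replicates 1 and 2 were nearly equal (252.96 and 252.78 CPM). How often these livers were highest over all tested genes was not counted, so these counts need not be particular to the subunits. The coefficient of variation within Cys52Ser livers was from 4.82% (Itgb3) to 99.3% (Itgb6), and within WT livers from 2.35% (Itgb1) to 72.4% (Itgb6). The common biological coefficient of variation of the whole table was 0.358.

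**Figure D2:**
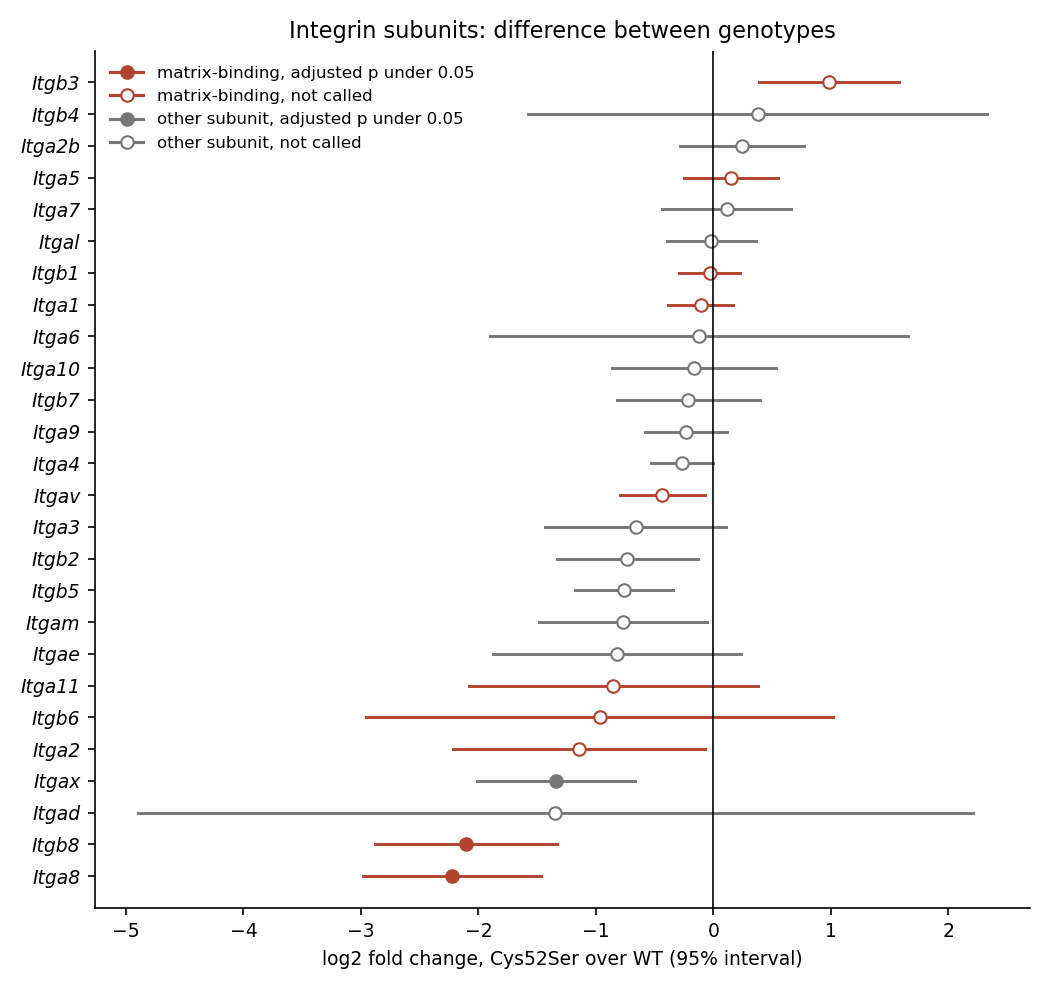
Log2 fold change of Cys52Ser over WT with its 95% interval for the 10 matrix-binding subunits and the 16 other integrin subunits of the table. Filled points passed the adjusted p threshold in edgeR: Itga8, Itgb8 and Itgax, all below 0.

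The 16 other integrin subunits of the mouse table are those of leukocytes, platelets and laminin receptors, the remaining alpha v partner Itgb5, the collagen receptor subunit Itga10 and Itga9, which binds tenascin C. Of these, 1 fell and 0 rose in Cys52Ser livers, with a median log2 fold change of -0.252. The one that fell was Itgax, the CD11c subunit of macrophages and dendritic cells, at 26.8, 18.8 and 22.8 CPM in Cys52Ser livers, against 84.5, 45.0 and 43.4 CPM in WT livers (log2 fold change -1.34, edgeR adjusted p = 0.0484, and up to 0.153 with a library left out). Itgb5, the alpha v partner with a level above those of beta 3, beta 6 and beta 8, was measured at 125, 112 and 133 CPM in Cys52Ser livers, against 265, 185 and 178 CPM in WT livers. The groups did not overlap, and the log2 fold change of -0.76 had an edgeR adjusted p of 0.0563, on the calling side of the threshold in 10 of 19 alternatives. Itga2b, the platelet partner of beta 3, was measured at 3.29, 3.26 and 3.83 CPM in Cys52Ser livers, against 2.86, 3.09 and 2.81 CPM in WT livers (log2 fold change 0.24, edgeR adjusted p = 0.586), and its sign turned under division by library totals alone (-0.11). Among the other partners of beta 1, Itga4 had a log2 fold change of -0.27 (edgeR adjusted p = 0.214), Itga9 of -0.23 (adjusted p = 0.413) and Itga6 of -0.12 (adjusted p = 0.949). Itga10 had a log2 fold change of -0.16 (edgeR adjusted p = 0.801). Itga6, a laminin receptor of epithelia, ranged from 2.85 to 25.2 CPM among Cys52Ser livers, highest in replicate 2, and from 10.1 to 18.5 CPM among WT livers.

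**Figure D3:**
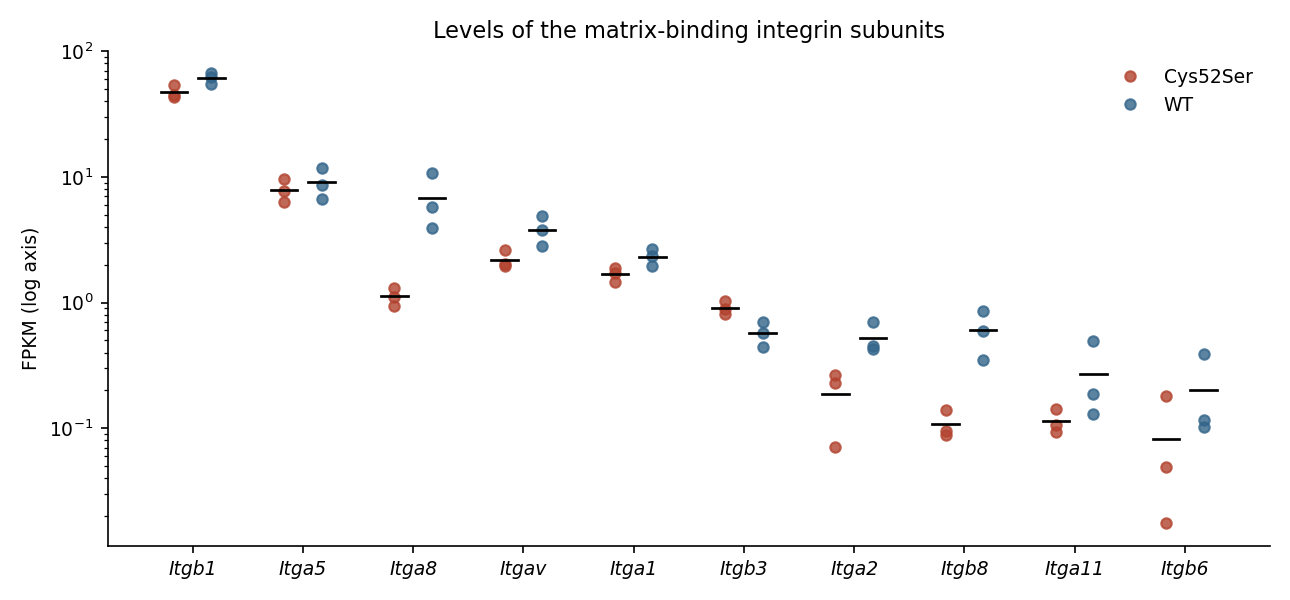
FPKM of the 10 subunits on a log axis, with Cys52Ser to the left of WT for each gene. Points are livers and lines are means of 3. The levels run from about 47.0 FPKM in Cys52Ser and 61.2 FPKM in WT livers for Itgb1 down to 0.0824 FPKM in Cys52Ser and 0.202 FPKM in WT livers for Itgb6, and Itga8 changes its place in the order.

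On the per-length scale of FPKM, the order of the levels was given by the ranges over 3 livers. Itgb1 was first in both genotypes, at 47.0 ± 5.69 FPKM in Cys52Ser livers and 61.2 ± 6.15 FPKM in WT livers (SD, n = 3 each). Itga5 followed at 7.83 ± 1.64 FPKM in Cys52Ser livers and 9.01 ± 2.56 FPKM in WT livers. In Cys52Ser livers the next were Itgav (2.20 FPKM), Itga1 (1.68), Itga8 (1.12) and Itgb3 (0.908), and only the ranges of Itga8 and Itgb3 overlapped among neighbours down to that point. In WT livers Itga8 was the third at 6.84 ± 3.55 FPKM, its range overlapping those of Itga5 above it and Itgav (3.80 FPKM) below it, and Itga1 (2.32 FPKM) was the fifth. The lowest 4 subunits of Cys52Ser livers were Itga2, Itga11, Itgb8 and Itgb6, at mean levels of 0.187, 0.114, 0.108 and 0.0824 FPKM. Neighbours among these 4 overlapped, and all lay below the range of Itgb3. In WT livers, neighbours among Itgb8 (0.599 FPKM), Itgb3 (0.572), Itga2 (0.526), Itga11 (0.269) and Itgb6 (0.202) likewise overlapped. Itga1 lay above Itgb8 without overlap in WT livers (lowest 1.94 FPKM against highest 0.860 FPKM).

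The FPKM scale carries no correction for composition, and in it 37.4% of genes were lower without overlap in Cys52Ser livers and 4.82% were higher. Of the 10 subunits, 6 were lower without overlap in FPKM, 1 was higher (Itgb3) and 3 overlapped. Itgb1, Itga1 and Itgav were among the 6 in FPKM while their CPM ranges overlapped. Ratios between subunits within a library do not depend on that scaling.

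**Figure D4:**
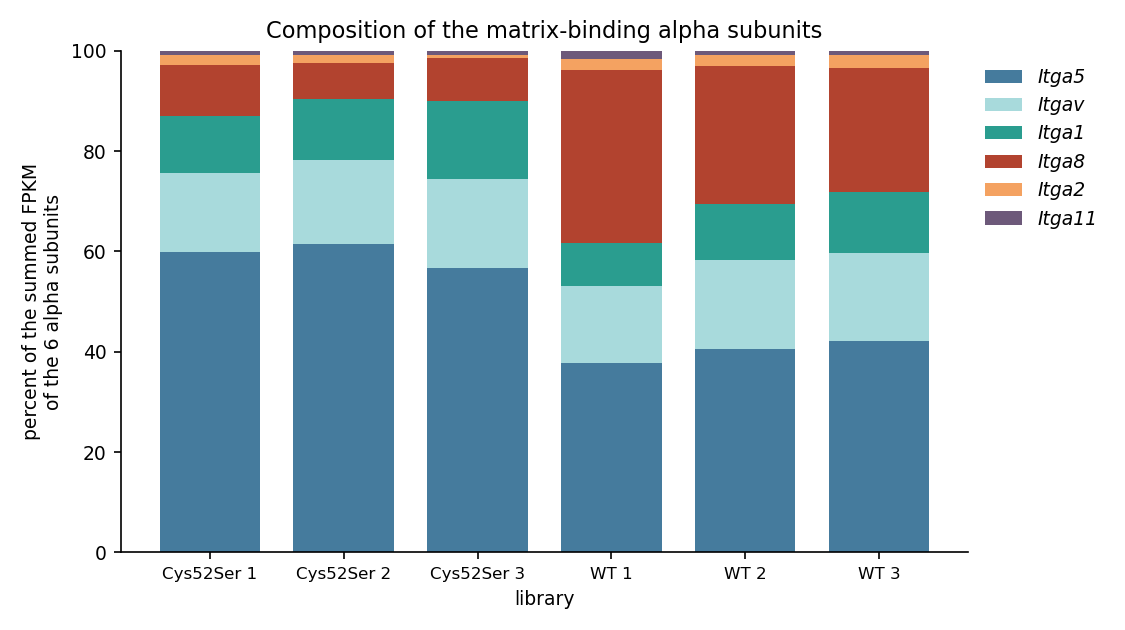
Share of each of the 6 alpha subunits in their summed FPKM, by library, Cys52Ser libraries on the left. Itga8 makes up 7.19% to 10.2% in Cys52Ser and 24.6% to 34.5% in WT libraries, and Itga5 makes up 56.8% to 61.4% in Cys52Ser and 37.7% to 42.1% in WT libraries.

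Within each library, Itga8 made up 10.2%, 7.19% and 8.50% of the summed FPKM of the 6 alpha subunits in Cys52Ser livers, against 34.5%, 27.4% and 24.6% in WT livers. Itga5 made up 59.9%, 61.4% and 56.8% in Cys52Ser livers, against 37.7%, 40.5% and 42.1% in WT livers. Neither pair of ranges overlapped, and as shares of 1 sum a lower Itga8 raises the others. Itgav held 15.7% to 17.7% in Cys52Ser livers and 15.5% to 17.8% in WT livers, and Itga1 held 11.3% to 15.5% in Cys52Ser livers and 8.51% to 12.1% in WT livers, with overlap in both cases. Among the 5 beta subunits that can pair with alpha v, Itgb1 averaged 62.4% of the summed FPKM in Cys52Ser livers and 50.8% in WT livers, and Itgb5 averaged 36.2% in Cys52Ser livers and 48.1% in WT livers. Itgb3 averaged 1.20% in Cys52Ser livers and 0.494% in WT livers, whereas Itgb8 averaged 0.142% in Cys52Ser livers and 0.477% in WT livers. Itgb3 was thus above Itgb8 in every Cys52Ser liver, and in WT livers their FPKM ranges overlapped. These are transcript shares and do not give the receptor pairs at the cell surface.

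Marker transcripts of cell types in which these subunits are known were set beside them. The 20 stellate cell and myofibroblast markers summed to 806, 1207 and 849 CPM in Cys52Ser livers, against 1908, 1467 and 1298 CPM in WT livers, and 9 of the 20 fell and 0 rose. Of the 20 log2 fold changes, 16 were below 0 and 4 above it, with a median of -0.558, and 11 markers were lower without overlap. The 4 above 0 were Cnn1 (2.19), Acta2 (0.76), Myl9 (0.73) and Des. None of these was called, and each was highest in Cys52Ser replicate 2. Of the 3 defining ones, Lrat fell (log2 fold change -0.59, edgeR adjusted p = 0.0425), Rgs5 fell (-0.97, adjusted p = 0.0243) and Des was not called (0.66, adjusted p = 0.676), with its highest value in Cys52Ser replicate 2. The largest parts of the sum were Dcn and Vim. Dcn had 291, 321 and 360 CPM in Cys52Ser livers, against 673, 529 and 494 CPM in WT livers. Vim had 177, 313 and 143 CPM in Cys52Ser livers, against 321, 241 and 229 CPM in WT livers. Shares of the stellate sum, here and below, depend strongly on these genes and were not computed without them. Itga8 amounted to 1.55%, 0.802% and 1.11% of the stellate sum in Cys52Ser livers, against 3.87%, 2.89% and 2.44% in WT livers. The ranges did not overlap (exact two-sided permutation p = 0.1, the smallest that 3 against 3 can give). The log2 fold change of Itga8 was below those of all 20 markers, the lowest of which was Loxl1 at -1.86. The interval of Itga8 given above, -2.98 to -1.47, holds those of Loxl1, Lox, Lum, Pdgfra, Ngfr, Cygb and Pdgfrb, so the rank does not separate it from them. Itga8 also had the lowest log2 fold change of the subunits described here. Whether it fell further than these markers was not tested. Itga11 amounted to 0.0717% to 0.0873% of the stellate sum in Cys52Ser livers and 0.0561% to 0.123% in WT livers, with overlap.

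The 15 cholangiocyte markers summed to 203, 486 and 167 CPM in Cys52Ser livers, against 1410, 776 and 669 CPM in WT livers, and 3 fell and 0 rose. Most of this sum was Spp1, at 141, 335 and 116 CPM in Cys52Ser livers, against 1161, 618 and 558 CPM in WT livers. Of the 15 log2 fold changes, 13 were below 0, with a median of -1.74, and 9 markers were lower without overlap. Those that fell, named after their values were seen, were the cadherin Cdh6 (log2 fold change -2.83, edgeR adjusted p = 0.0168), the cilium protein Pkhd1 (-1.84, 0.0183) and the tight junction protein Cldn7 (-2.50, 0.0393). The defining keratins Krt19, Krt7 and Krt23 were not called, with log2 fold changes of 0.55, -1.14 and -0.96 (edgeR adjusted p = 0.806, 0.327 and 0.443). Itgb8 amounted to 0.679%, 0.379% and 0.801% of this sum in Cys52Ser livers, against 0.629%, 0.837% and 0.630% in WT livers, so that the ranges overlapped (exact two-sided permutation p = 0.8), and 4 of the 15 markers had a log2 fold change below that of Itgb8. Against the stellate sum, Itgb8 amounted to 0.171%, 0.153% and 0.158% in Cys52Ser livers and 0.465%, 0.443% and 0.324% in WT livers, without overlap (exact two-sided permutation p = 0.1). Itgb6 amounted to 0.226%, 0.315% and 0.103% of the cholangiocyte sum in Cys52Ser livers and 0.183%, 0.108% and 0.119% in WT livers, with overlap. Shares of the cholangiocyte sum are mainly ratios to Spp1. They were not computed without it, so the overlap of Itgb8 and Itgb6 need not hold for the other markers. The part of these marker differences in the levels of Itga8 and Itgb8 was not tested.

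**Figure D5:**
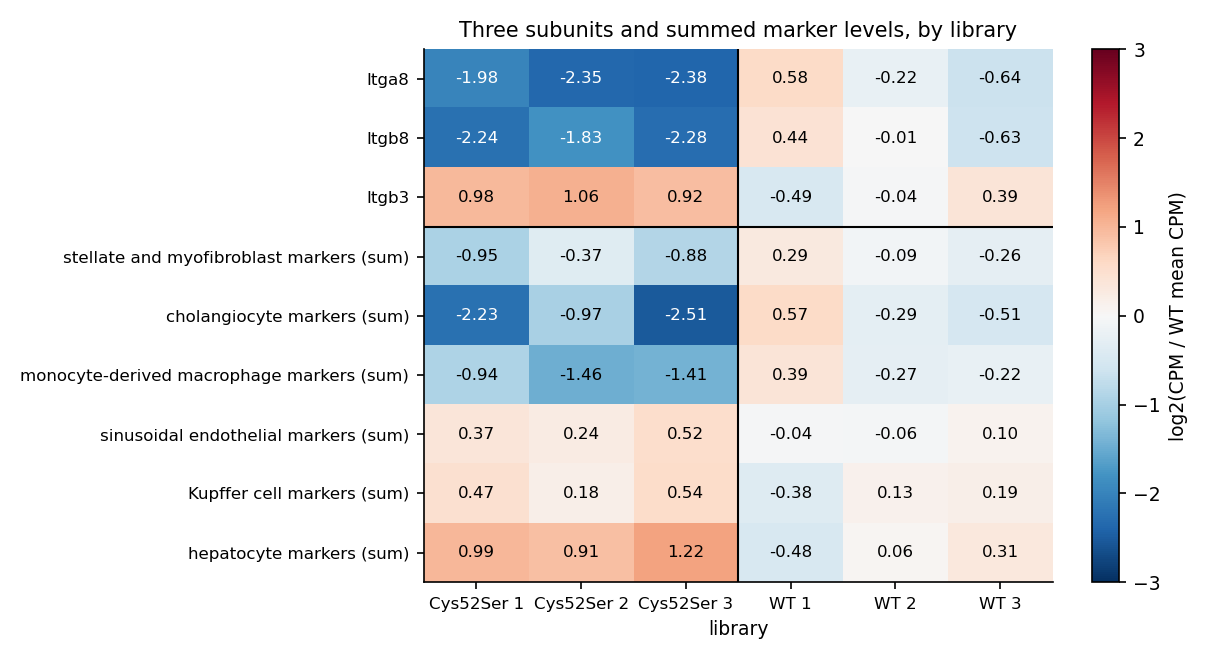
Log2 ratio of each library's CPM to the WT mean for 3 subunits (upper rows) and for the summed CPM of 6 marker lists (lower rows), with Cys52Ser libraries in the left columns. Itga8 is at -1.98 to -2.38 in Cys52Ser libraries where the stellate sum, with Dcn and Vim as its largest parts, is at -0.37 to -0.95. The cholangiocyte sum, most of it Spp1, spans -0.97 to -2.51.

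For Itgb3, platelet and sinusoidal endothelial markers were set beside its level. The 14 platelet and megakaryocyte markers summed to 40.9, 33.3 and 40.3 CPM in Cys52Ser livers, against 25.7, 31.2 and 35.7 CPM in WT livers, which overlap. Only 7 of the 14 were detected in all 6 libraries, and 9 were high enough to be tested, of which 0 rose and 0 fell. Gp1ba, a defining platelet glycoprotein, had 0.321, 0.0736 and 0.287 CPM in Cys52Ser livers, against 0.266, 0 and 0.104 CPM in WT livers. The 15 sinusoidal endothelial markers summed to 800, 728 and 885 CPM in Cys52Ser livers, against 601, 593 and 662 CPM in WT livers, and 5 rose and 0 fell. Of the 15 log2 fold changes, 14 were above 0, with a median of 0.36, and 8 markers were higher without overlap. Those that rose, also named after their values were seen, were the VEGF receptor Kdr (log2 fold change 0.65, edgeR adjusted p = 0.0243), Dnase1l3 (0.70, 0.0277), the endothelial cadherin Cdh5 (0.81, 0.0315), Gpr182 (0.57, 0.0388) and Ehd3 (0.79, 0.0487). Itgb3 amounted to 0.847%, 0.983% and 0.735% of the endothelial sum in Cys52Ser livers, against 0.408%, 0.566% and 0.681% in WT livers (exact two-sided permutation p = 0.1). Its log2 fold change was above those of all 15 markers. The interval of Itgb3 given above, 0.39 to 1.58, holds those of the endothelial markers that rose, so the rank does not separate it from them. The defining markers Stab1, Stab2 and Lyve1 were not called (log2 fold changes -0.16, 0.44 and 0.003). For leukocytes, 3 of 12 Kupffer cell markers rose and 0 fell. Those that rose, named after their values were seen, had log2 fold changes above that of Itgb3: Clec4f (1.56), Folr2 (1.20) and Cd163 (3.77). Of the 12 Kupffer cell log2 fold changes, 9 were above 0 and 3 were below it. Of 12 monocyte-derived macrophage markers, Itgax among them, 5 fell and 0 rose, and 1 of 14 T cell and NK cell markers fell and 0 rose. The part of these differences in the level of Itgb3 was not tested.

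Inside the cell, integrins act through a shared set of adhesion proteins. Of 30 such genes, among them the talins, kindlins, Ilk, the parvins, Ptk2, vinculin and paxillin, 2 fell and 0 rose, with a median log2 fold change of -0.142. Fblim1 (migfilin), which links filamin to cell contacts, was measured at 12.8, 15.8 and 12.7 CPM in Cys52Ser livers, against 39.9, 29.0 and 24.9 CPM in WT livers (log2 fold change -1.18, edgeR adjusted p = 0.0261). Lims1 (PINCH1), the partner of Ilk, was measured at 28.4, 34.8 and 29.9 CPM in Cys52Ser livers, against 53.2, 49.2 and 44.0 CPM in WT livers (log2 fold change -0.66, edgeR adjusted p = 0.033). Without Cys52Ser replicate 1, Cys52Ser replicate 3 or WT replicate 2, both lost the call, with edgeR adjusted p up to 0.101 for Fblim1 and 0.121 for Lims1. Lims1 also lost it without WT replicate 1.

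Among 38 matrix ligands of integrins, 6 fell and 1 rose, with a median log2 fold change of -0.747. Fn1, the ligand of alpha 5 beta 1 and alpha v integrins, was the one that rose, at 1140, 1235 and 1448 CPM in Cys52Ser livers, against 778, 700 and 718 CPM in WT livers (log2 fold change 0.80, edgeR adjusted p = 0.0359). Its call was lost with any 1 library left out (edgeR adjusted p = 0.0571 to 0.119). Vtn, the ligand of alpha v beta 3 and, like Fn1, a product of hepatocytes, had a log2 fold change of 0.67 (edgeR adjusted p = 0.0952). The ligands that fell were Col6a3 (log2 fold change -1.84, edgeR adjusted p = 0.0189), Col5a2 (-1.20, 0.0267), Col3a1 (-1.34, 0.0302), Lama2 (-1.68, 0.0334), Mfge8 (-1.52, 0.0361) and Thbs2 (-1.47, 0.0434), which is named beyond the rule for named genes to complete the count. Of those that the rule takes, all 5 lost the call without Cys52Ser replicate 1, Cys52Ser replicate 3 or WT replicate 2 (highest edgeR adjusted p per gene 0.0775 to 0.124). Col3a1 and Lama2 also lost it without Cys52Ser replicate 2 or WT replicate 1. Col5a2 also lost it without WT replicate 1, and Mfge8 without Cys52Ser replicate 2. Mfge8 carries the RGD letters that alpha v integrins bind. Col1a1 (log2 fold change -1.20, edgeR adjusted p = 0.0823), Spp1 (-1.98, 0.0691) and Tnc (-0.79, 0.389) were not called, although the groups did not overlap for Col1a1 and Spp1. Spp1 also stands in the cholangiocyte list.

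Of 21 genes of latent TGF-beta, its receptors and its targets, 5 fell and 0 rose, with a median log2 fold change of -0.542. Tgfb2 was measured at 1.38, 2.23 and 1.38 CPM in Cys52Ser livers, against 10.2, 6.10 and 4.42 CPM in WT livers (log2 fold change -2.06, edgeR adjusted p = 0.0338). Tgfb1, a form whose latent complex alpha v beta 6 and alpha v beta 8 bind through RGD, overlapped between groups (log2 fold change -0.36, edgeR adjusted p = 0.285). Tgfb3 was at 3.32, 5.25 and 2.79 CPM in Cys52Ser livers, against 16.1, 10.2 and 6.52 CPM in WT livers, without overlap. It is named beyond the rule for named genes and was not called (log2 fold change -1.53, edgeR adjusted p = 0.0682). Ltbp2, a microfibril protein of the latent binding protein family that does not itself bind TGF-beta, fell (log2 fold change -2.15, edgeR adjusted p = 0.0314). Nrros, which holds latent TGF-beta 1 on macrophages, fell (-0.62, adjusted p = 0.0353), as did the receptor Tgfbr1 (-0.70, 0.0368) and the decoy receptor Bambi (-1.15, 0.0468). The same 3 left-out libraries ended these 5 calls (highest edgeR adjusted p per gene 0.106 to 0.141). Tgfbr1 and Bambi also lost the call without Cys52Ser replicate 2 or WT replicate 1. Ltbp2 and Nrros also lost it without Cys52Ser replicate 2, and Tgfb2 without WT replicate 1. The log2 fold change was -0.16 for Ltbp1 (edgeR adjusted p = 0.905).

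The genes whose levels followed Itga8 most closely over the 6 libraries, by the root mean square difference of centred log2(CPM + 0.5) among 13097 candidates, were Dpt (0.113), Ltbp2 (0.129) and Plat (0.141). Dpt, the matrix protein dermatopontin, had a log2 fold change of -2.25 (edgeR adjusted p = 0.0272), and Plat, tissue plasminogen activator, of -2.19 (adjusted p = 0.0243). For Itgb8 they were Ddr1 (0.096), Tgfb2 (0.106) and Megf6 (0.125). Ddr1, a collagen-binding receptor kinase, was measured at 9.0, 13.4 and 9.53 CPM in Cys52Ser livers, against 48.1, 41.9 and 26.3 CPM in WT livers (log2 fold change -1.86, edgeR adjusted p = 0.0207). Megf6, a protein with EGF-like repeats, was 4.0-fold lower (edgeR adjusted p = 0.0407). For Itga2, the next largest difference among the 10, they were Cpt1c (0.147), Rnf122 (0.148) and Ankrd42 (0.151), and none of these passed the test. The measure takes in the difference between the genotypes, so the likeness describes these 6 libraries only. For the same reason, the fold changes of these genes, and whether they passed the test, largely follow from how they were picked.

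The calls depended on which livers entered the fit. Without Cys52Ser replicate 1, Cys52Ser replicate 3 or WT replicate 2, 31, 28 and 57 genes of the whole table were called, with 0.0467%, 0.0363% and 0.0724% of genes called lower. Neither a subunit of the 10 nor any of the 18 other called genes that the rule for named genes takes was called in those 3 fits. Among the 18, Dpt, Plat, Ddr1 and Megf6 were picked only for their likeness to Itga8 or Itgb8. Without Cys52Ser replicate 2, the liver that stood apart in Acta2 and Krt19, 1 of the 10 subunits (Itgb8) and 7 of the 18 other genes were called, and 1.12% of all genes were called lower. Without WT replicate 1, 9 of the 18 were called, and without WT replicate 3, 17 were. Where a list other than the 10 subunits had 0 genes called higher, DESeq2 also called 0 higher, except 1 T cell or NK cell marker, and at an unadjusted edgeR p below 0.05 there were 2 of these markers and 1 adhesion gene. Where a list had 0 called lower, 1 Kupffer cell marker and 1 platelet marker were below an unadjusted p of 0.05, and DESeq2 called 1 Kupffer cell marker.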

How the data were processed

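Polyadenylated RNA of 6 livers was sequenced from strand-marked libraries with molecular identifiers, per the labels' protocols. The submitters' processing notes list mm9, StringTie 1.3.4d, HISAT2 2.0.4, edgeR, DESeq2, UMI-tools and cutadapt 1.9, with no role for any of them. The deposited coordinates do not follow mm9, since 89.9% of the 28524 gene identifiers found in GENCODE M21 had identical GRCm38 coordinates, among them all 10 subunits. The authors deposited an estimated count and an FPKM value (scaled to library size and transcript length) per gene and library, per the file headers. All counts are integers, and for 89.9% to 92.4% of single-transcript genes with at least 1000 counts they lay within 1% of FPKM times length times a constant, so they are estimates from coverage, and a count test takes them as counts. They were used as deposited.

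The test was edgeR 4.0.16 in R 4.3.3 (filterByExpr with a minimum count of 10, TMM, robust quasi-likelihood, genotype as the only term), with Benjamini-Hochberg adjustment over 18648 genes and a threshold of 0.05. All 10 subunits passed the filter. Alternatives were limma 3.58.1 on log2(FPKM + 0.5) for genes with a mean FPKM of at least 0.1, other pseudocounts, DESeq2 1.42.0, other scalings and filters, a replicate block and each library left out. Same-numbered livers had correlations of 0.01, 0.17 and 0.06 between their deviations, and the labels do not pair them. Named genes were all subunits, the genes called in each list (the 6 with the smallest p), partners and ligands set by name, and the 3 genes most like Itga8, Itgb8 and Itga2. The subunits and lists were chosen with earlier results of these data known. Some genes that the rule takes are counted in their lists but not reported here by name.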

Additional observations from a re-analysis of the deposited data

How the results depend on the processing

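Itga8 stayed lower in all 19 alternatives (log2 fold change -2.61 to -1.79) and was called in 15 of them, and Itgb8 stayed lower in all 19 (-2.47 to -0.52) and was called in 13. Both kept the call with a replicate block, where Itga8 had a log2 fold change of -2.15 (edgeR adjusted p = 0.028) and Itgb8 of -2.05 (0.0394), and 729 genes of the table were called. The count of genes changed was 928 in edgeR, 3017 with library totals alone, 2475 in DESeq2, 2820, 2908 and 2686 in limma on log2(FPKM + 0.5), log2(FPKM + 0.1) and log2(FPKM + 1), and 28 to 790 with a library left out. The number of subunits called higher was 1 in DESeq2 (Itgb3). The number called lower was 3 with library totals alone (Itga8, Itgb8 and Itgav; 14.6% of all genes), 1 in limma after quantile normalization (2.62% of all genes), 1 in limma without a filter (3.81%; Itga8 in both) and 0 to 2 with a library left out. The median log2 fold change of the 10 subunits was -1.01 with library totals alone, -0.37 and -0.33 in limma with pseudocounts of 0.5 and 1, -0.21 after quantile normalization, -0.37 without a filter and -0.91 to -0.21 with a library left out. The sign of Itga5 turned with library totals alone (-0.20), in limma with pseudocounts of 0.5, 0.1 and 1 (-0.18, -0.18 and -0.17) and without a filter (-0.18), and ranged from -0.025 to 0.28 with a library left out. Itga2b turned under the same settings (-0.11, -0.0532, -0.0872, -0.0358 and -0.0532). With a library left out, Itga6 ranged from -1.22 to 0.34 and Ltbp1 from -0.99 to 0.16. The cause of these shifts was not tested. FPKM values under 1 make the limma differences of Itgb8, Itgb6, Itga2 and Itga11 depend on the pseudocount.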
